A study of Mus musculus with 12 samples.

Results

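The transcripts described here are 31 genes of B, T and natural killer (NK) lymphocytes, listed by name with earlier results of these data known, out of 52550 gene identifiers in the count table. Of these, 12 are B cell genes and 19 are T and NK cell genes, and each matched exactly 1 row by its Ensembl identifier. They were read in 12 RNA-seq libraries of mouse fat, 3 in each of 4 groups: white fat of the inguinal pad (WAT) and brown fat (BAT), each from control and from AKO mice. Control mice were Mcu fl/fl. Mcu encodes the pore of the uniporter that takes calcium into mitochondria, and here its gene is floxed. AKO mice were Mcu fl/fl mice with that gene deleted in adipose tissue. All 4 groups therefore share the floxed allele, and the design text of the series places the mice on a high-fat diet. The sources used here name no Cre driver, age or sex, and the labels do not say whether each library came from its own animal, so p-values measure the spread between libraries. Libraries are named below by depot, genotype and replicate number.

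The inguinal fat pad of the mouse surrounds a lymph node, and whether that node was removed before RNA isolation was not stated in the labels. A lymph node holds B cells in follicles and T cells in the surrounding zone. Naive lymphocytes enter it through high endothelial venules, vessels whose walls carry sulphated mucins such as Glycam1. Follicular dendritic cells and reticular cells of the node make chemokines that place the 2 cell types, Cxcl13 for B cells and Ccl19 and Ccl21 for T cells. Fat itself also holds resident T cells, NK cells and antibody-secreting cells. Brown fat, read from the same study, was the depot without the inguinal node. In bulk RNA, fewer cells of a type and less RNA per cell cannot be told apart.

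Library totals ran from 15692588 to 18967159 counts. Mcu, the targeted gene, had 18.9, 22.2 and 21.1 CPM (the gene's part of all counts in its library, times 1000000) in WAT controls 1 to 3 and 12.7, 14.2 and 13.6 CPM in WAT AKO 1 to 3, so the groups did not overlap (log2 fold change -0.75, SE 0.127, adjusted p = 0.0799 by edgeR). In BAT it had 22.7, 25.2 and 20.9 CPM in controls and 8.17, 12.3 and 7.04 CPM in AKO, again apart. Adipocyte markers were abundant in all libraries, with Adipoq between 33762 and 51226 counts in WAT and between 10450 and 14365 in BAT. The skeletal muscle list summed to 2.11% of the counts of WAT AKO 2, 1.54% of BAT AKO 2 and 1.2% of WAT control 1, and to at most 0.3% of any other library. 1 library stood apart in the transcripts studied here. WAT control 2 held lymphocyte and lymph node transcripts at or near the level of the AKO libraries, while WAT controls 1 and 3 did not, so counts of genotype calls in WAT, and the fold changes of the members described, are also given without it.

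The 11 B cell members other than Ighm summed to 15.3, 524 and 9.5 CPM in WAT controls 1 to 3 and to 1001, 686 and 1703 CPM in WAT AKO 1 to 3. The 19 T and NK members summed to 23.9, 368 and 37.9 CPM in the controls and to 392, 343 and 679 CPM in AKO. Control 2 was thus within the AKO range for the T and NK sum and below it for the B sum. In BAT the 6 libraries ran from 2.73 to 16.5 CPM for the B sum and from 6.44 to 15.8 CPM for the T and NK sum, so WAT controls 1 and 3 overlapped brown fat for B cell transcripts and lay above it for T and NK transcripts. In WAT control 2, 25 of the 31 members lay above both other WAT controls, and 22 of them, 10 B and 12 T and NK, by at least 5-fold. The 6 that did not were Jchain, Ighm, Ncr1, Klrb1c, Gzma and Tnfsf4.

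**Figure D1:**
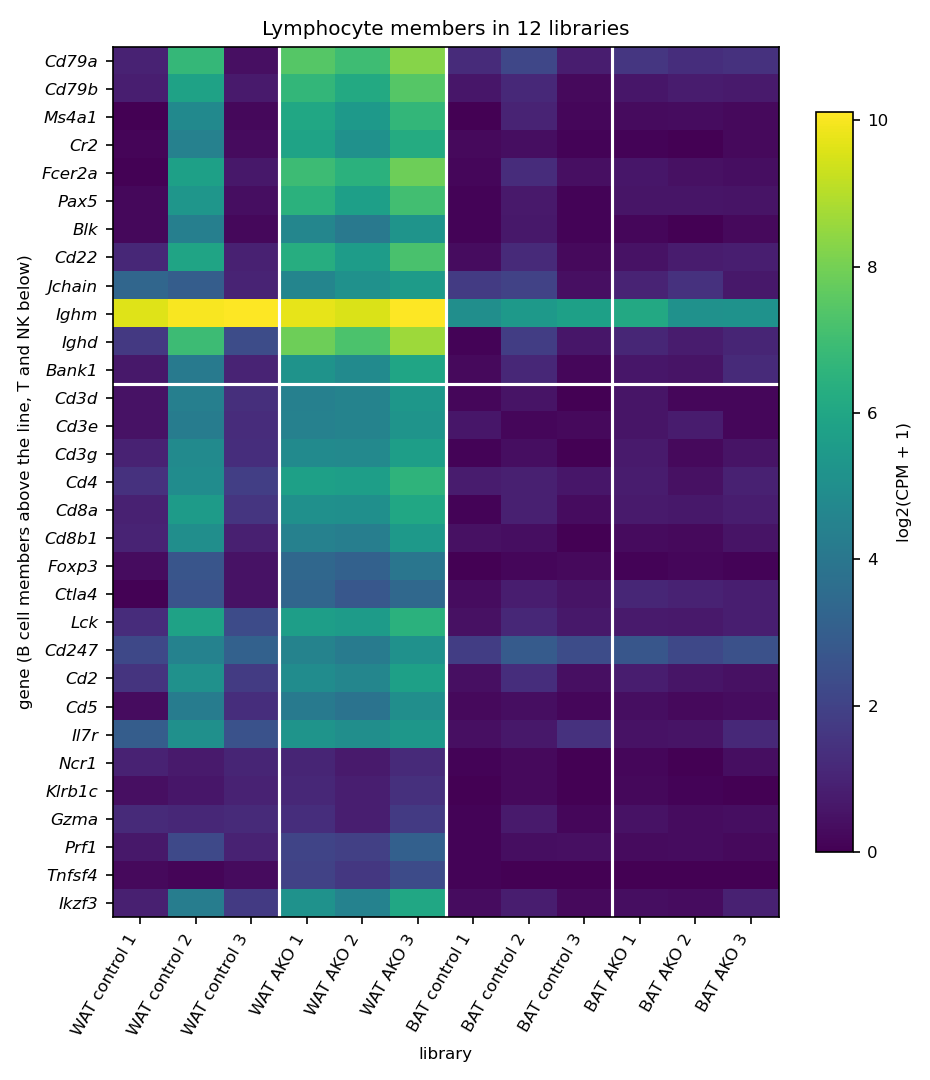
Level of each of the 31 members as log2(CPM + 1), colour, in the 12 libraries, columns, with B cell members above the horizontal line and T and NK members below it. WAT control 2 and the 3 WAT AKO libraries share raised levels of most members, Ighm is high in all 6 WAT libraries, and Tnfsf4 is raised in the AKO libraries alone among WAT.

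In the test of AKO against control in WAT, no lymphocyte member passed. All 31 members cleared the filter on low counts, 30 had a positive log2 fold change, and the median was 1.95 against 0.00 over the 15915 genes tested. edgeR's quasi-likelihood test called 0 of the 31 at an adjusted p under 0.05, where it called 0.0189% of all genes, and 3 members (Tnfsf4, Jchain and Cd4) had an unadjusted p under 0.05, as did 22.6% of all genes. DESeq2 called 2 members higher, Tnfsf4 (adjusted p = 3.67e-07) and Jchain (adjusted p = 0.0022), where it called 4.4% of all genes higher, and gave no p for 7 members. For 16 members every AKO library lay above every control library, a pattern held by 19.3% of all genes tested.

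Without WAT control 2, 26 of the 31 members were called higher in AKO by edgeR, where 6.51% of all genes were, with a median log2 fold change of 4.67 (7.03 for the 12 B members and 4.35 for the 19 T and NK members). The 5 not called were Jchain, Ighm, Ncr1, Klrb1c and Gzma. Control 2 differs from the other controls in the transcripts under test, so these calls describe the 3 AKO libraries against 2 control libraries and are not an independent test of genotype. With all libraries kept and the mean log2 level of 4 node genes (Glycam1, Chst4, Madcam1 and Ccl19) as a covariate, an alternative chosen after seeing the data, the median was -0.65, and 24 of the 31 log2 fold changes were negative that had been positive. Those 4 genes split the WAT libraries as most members did, and Ccl19 correlated at 0.9962 with the mean of the B members over all libraries. The sign changes were therefore largely built into that fit and give no information on genotype. That fit called 0% of all genes by edgeR, so its 0 calls among the members carry no information about them.

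**Figure D2:**
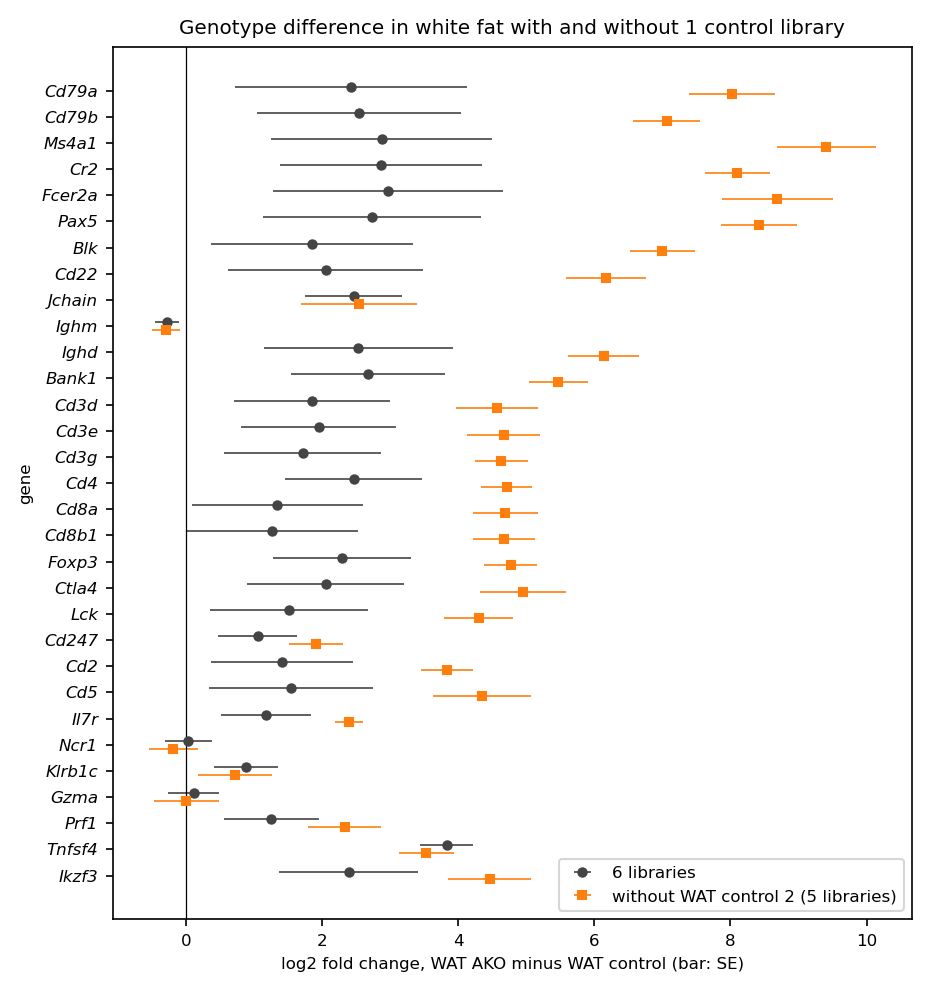
Log2 fold change of each member between WAT AKO and WAT control from edgeR, over all 6 libraries (circles) and over 5 libraries without WAT control 2 (squares). Bars are the SE derived from the F statistic. Without control 2 the median member moves from 1.95 to 4.67 and most bars are shorter, whereas Jchain, Ighm, Ncr1, Klrb1c, Gzma and Tnfsf4 move little.

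Of the 8 B cell receptor and surface members, 7 had positive log2 fold changes with a median of 2.54 over the 8, none was called by edgeR with 0 at an unadjusted p under 0.05, and 6 had groups that did not overlap. Cd79a, which with Cd79b forms the signalling chains of the B cell receptor, had 18, 1868 and 6 counts in WAT controls 1 to 3 and 3189, 2178 and 5367 in WAT AKO 1 to 3. All AKO libraries were above control 2, by 1.16-fold for the lowest of them, and control 2 was 111-fold above the higher of the other controls. The log2 fold change was 2.42 (SE 1.71, adjusted p = 0.418 by edgeR) over 6 libraries and 8.02 (SE 0.634, adjusted p = 0.00626) without control 2. Cd79b had 15, 979 and 12 counts in controls and 1912, 1232 and 3062 in AKO, and AKO exceeded control by 2.54 on the log2 scale (SE 1.5, adjusted p = 0.346), or by 7.06 (SE 0.487, adjusted p = 0.00603) without control 2. Cd79a lies on the plus strand of chromosome 7 (24897381 to 24902197, mm10, GENCODE M21). The bases upstream of its first annotated exon are shown as the start of the member with the highest level per length after Ighm, chr7:24897247-24897380 on the plus strand of GRCm38.p6, from RefSeq, 5′ to 3′. None of the 7 motifs described below lies within this stretch.
Cd79a: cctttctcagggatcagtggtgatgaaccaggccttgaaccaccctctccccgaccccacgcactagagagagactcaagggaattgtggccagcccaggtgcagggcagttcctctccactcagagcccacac

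Surface proteins of mature and follicular B cells showed the same order of libraries. Ms4a1 (CD20) had 0, 479 and 3 counts in WAT controls 1 to 3 and 1192, 764 and 1792 in AKO. Fcer2a (CD23), the low-affinity IgE receptor of follicular B cells, had 1, 941 and 10 counts in controls and 2232, 1557 and 4125 in AKO. Cr2 (CD21), the complement receptor of B cells and follicular dendritic cells, had 2, 372 and 4 counts in controls and 1054, 598 and 1274 in AKO. In each of these 3 genes controls 1 and 3 were at 10 counts or fewer and control 2 was between them and AKO. Their log2 fold changes over 6 libraries were 2.87, 2.97 and 2.86, with adjusted p of 0.33, 0.334 and 0.297 by edgeR. Without control 2 Fcer2a measured 8.69 (SE 0.813, adjusted p = 0.00733) and Cr2 8.10 (SE 0.476, adjusted p = 0.00603), and Ms4a1 was called as well (adjusted p = 0.00626). Ms4a1 rested on 3 counts in controls 1 and 3 together against 3748 in AKO, a depth-scaled ratio of 854 (95% exact counting interval 292 to 4142). The inhibitory lectin Cd22 had 23, 1053 and 16 counts in controls and 1434, 828 and 2559 in AKO, so that control 2 lay within the AKO range. Its log2 fold change was 2.05 (adjusted p = 0.415), and 6.17 (adjusted p = 0.00733) without control 2.

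All 4 B cell transcription and signalling members had positive log2 fold changes with a median of 2.53, 0 of them called by edgeR, and 3 had groups that did not overlap. These were Pax5, Blk, Bank1 and Ikzf3, the last of which is counted with the T and NK members elsewhere. Pax5, the factor that holds B cell identity, had 3, 676 and 5 counts in WAT controls and 1608, 909 and 2296 in AKO (log2 fold change 2.73, SE 1.6, adjusted p = 0.344 by edgeR). Blk, a Src-family kinase of B cells, had 3, 349 and 3 counts in controls and 437, 283 and 643 in AKO, and its groups overlapped. Bank1, a scaffold of B cell receptor signalling, had 11, 296 and 18 counts in controls and 665, 488 and 1049 in AKO, with no overlap. Without control 2 the log2 fold changes were 8.42 for Pax5 and 5.47 for Bank1, with adjusted p of 0.00603 and 0.00626 by edgeR, and Blk was called too (adjusted p = 0.00603). Counts relative to Cd79a set control 2 apart from the AKO libraries in both directions. Blk made up 15.7% of the summed Blk and Cd79a counts in control 2 (95% exact interval 14.2 to 17.3) and 12.1%, 11.5% and 10.7% in AKO 1 to 3, with the highest AKO bound at 13.2%. Cr2 made up 16.6% of the summed Cr2 and Cd79a counts in control 2 (15.1 to 18.2) and 24.8%, 21.5% and 19.2% in AKO, the last with an interval of 18.2 to 20.2. These intervals cover counting error only, and a single control library with node transcripts allows no test of genotype on such shares.

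The 3 immunoglobulin members did not share 1 pattern. Ighm, the constant region of the IgM heavy chain, had 15056, 18240 and 19545 counts in WAT controls 1 to 3 and 15726, 12984 and 18893 in AKO. All 6 WAT libraries were thus alike in Ighm, including controls 1 and 3, where Cd79a was at 18 and 6 counts. The log2 fold change was -0.28 (SE 0.173, adjusted p = 0.369 by edgeR), the only negative one among the members, and -0.30 (adjusted p = 0.372) without control 2. In BAT Ighm ran from 487 to 1149 counts, and it was higher in WAT than in BAT among controls (log2 4.18, SE 0.232, adjusted p = 5e-05) and among AKO libraries (log2 3.71, SE 0.308, adjusted p = 5e-05). Its level per length was 518 ± 86.2 FPKM in WAT controls and 471 ± 93.4 in WAT AKO (SD, n = 3 each), the highest of all members in both groups. Its annotated position is chromosome 12, minus strand, 113418558 to 113422730.

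Ighd, the constant region of IgD on naive B cells, followed the receptor genes instead. It had 41, 2134 and 73 counts in WAT controls and 4297, 2716 and 6815 in AKO, with no overlap between the groups (log2 fold change 2.53, SE 1.39, adjusted p = 0.32 by edgeR, and 6.14, SE 0.522, adjusted p = 0.00628 without control 2). Of the summed Ighd and Ighm counts, Ighd made up 0.272% and 0.372% in controls 1 and 3, 10.5% in control 2 and 21.5%, 17.3% and 26.5% in AKO 1 to 3. Controls 1 and 3 therefore held Ighm with almost no Ighd, Cd79a or Ms4a1. The 2 controls differed in their light chain and variable segment counts. Igkc, the kappa constant region, had 531, 1509 and 67 counts in controls and 3985, 3132 and 6138 in AKO. Control 1 also had 283 counts over 160 kappa variable segments, 20 of them with at least 5 counts, against 36 counts and 2 such segments in control 3. In WAT control 3, 0 of 185 heavy chain variable segments reached 5 counts, against 18 and 11 in controls 1 and 2 and 46, 43 and 66 in AKO 1 to 3. Its 19545 counts of Ighm stood beside 24 counts over all 185 segments. The source of the Ighm reads in controls 1 and 3 was not tested.

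Jchain, the chain that joins IgA and IgM into polymers and marks antibody-secreting cells, had 173, 122 and 18 counts in WAT controls 1 to 3 and 434, 604 and 811 in AKO. All 3 AKO libraries were above all controls, and control 2 lay between controls 1 and 3. The log2 fold change was 2.46 (SE 0.71, adjusted p = 0.135 by edgeR) over 6 libraries and 2.54 (SE 0.847, adjusted p = 0.107) without control 2, and over the 19 fits run for it the adjusted p ran from 0.0022 to 0.762. With the node covariate it was 2.32 (adjusted p = 0.762). Jchain made up 90.6% of the summed Jchain and Cd79a counts in control 1 (95% exact interval 85.5 to 94.3), 6.13% in control 2 and 12%, 21.7% and 13.1% in AKO 1 to 3. In control 3 it made up 75% (53.3 to 90.2), from 18 counts against 6. In BAT the share ran from 24.3% to 63.3%. Controls 1 and 3 thus held Jchain with little Cd79a, control 3 at low counts of both.

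Of 9 immunoglobulin constant genes that passed the filter, from a list of 10, all 9 had positive log2 fold changes with a median of 2.56. None was called by edgeR, 6 had an unadjusted p under 0.05, as did 22.6% of all genes, and for 8 the groups did not overlap. AKO lay wholly above control for 19.3% of all genes. Without control 2, edgeR called 5 of the 9 higher, with a median of 3.72, where it called 6.51% of all genes higher. Ighg2c, an IgG heavy chain, had 133, 41 and 33 counts in WAT controls and 1208, 407 and 587 in AKO (log2 3.26, SE 0.646, adjusted p = 0.0945, and 2.95, adjusted p = 0.0499 without control 2). Ighg2b had 100, 62 and 1 counts in controls and 380, 370 and 635 in AKO (log2 2.97, SE 0.995, adjusted p = 0.165, and 3.03, adjusted p = 0.144 without control 2). In both genes control 2 was nearer to controls 1 and 3 than to AKO. Mzb1, a chaperone of antibody-secreting cells, had 6, 74 and 0 counts in controls and 278, 225 and 408 in AKO (log2 3.41, SE 1.22, adjusted p = 0.18, and 6.43, adjusted p = 0.0119 without control 2), while the plasma cell list as a whole, with 5 of 7 positive, had a median of 0.12.

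**Figure D3:**
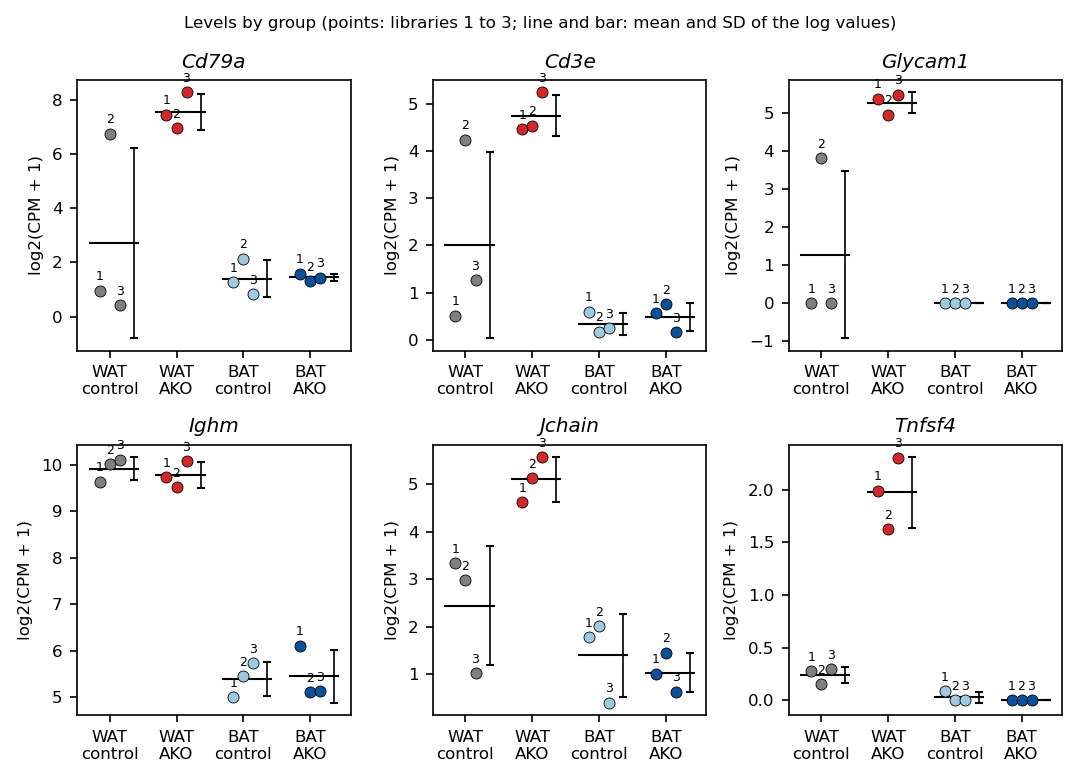
Levels of 6 genes as log2(CPM + 1) in the 4 groups, with the numbered points standing for libraries 1 to 3 and the lines and bars for the mean and SD of the log values (n = 3). Cd79a, Cd3e and Glycam1 are high in WAT control 2 and WAT AKO, and Ighm is alike in all WAT libraries. In WAT control 2 Jchain lies between the other controls, and Tnfsf4 is not raised above them.

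The 8 T cell receptor complex and coreceptor members all had positive log2 fold changes with a median of 1.61, 0 were called by edgeR, and 3 had groups that did not overlap. Cd3e, a signalling chain of the complex, had 8, 317 and 25 counts in WAT controls 1 to 3 and 387, 394 and 648 in AKO, with no overlap. Cd3d had 8, 347 and 28 counts in controls and 374, 385 and 704 in AKO. Cd3g had 18, 492 and 26 in controls and 511, 457 and 884 in AKO, and here control 2 fell within the AKO range. The log2 fold changes were 1.95, 1.85 and 1.71 over 6 libraries (adjusted p = 0.342, 0.367 and 0.402 by edgeR) and 4.67, 4.57 and 4.63 without control 2 (adjusted p = 0.0101, 0.0128 and 0.00628). Lck, the kinase that starts signalling from the complex, had 27, 979 and 70 counts in controls and 913, 802 and 1539 in AKO, with overlapping groups, and a log2 fold change of 4.30 (adjusted p = 0.0101) without control 2 against 1.51 with it. Cd247, the zeta chain, had 67, 379 and 138 counts in controls and 400, 310 and 591 in AKO, and its log2 fold change was 1.05 (SE 0.584, adjusted p = 0.324), or 1.90 (SE 0.397, adjusted p = 0.039) without control 2. Of the 5329 exon bases of Cd247, 3007 are shared with Pou2f1 on the opposite strand, and without a stated strand setting the reads of the 2 genes cannot be told apart. Its BAT counts of 41 to 104 exceeded those of every other T and NK member in 6 of 6 BAT libraries.

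The coreceptors divided control 2 from the AKO libraries. Cd4, on helper and regulatory T cells, had 32, 524 and 47 counts in WAT controls and 971, 895 and 1647 in AKO, with no overlap (log2 fold change 2.46, SE 1.01, adjusted p = 0.218 by edgeR, and 4.71, adjusted p = 0.00626 without control 2). Cd8a, on cytotoxic T cells, had 17, 804 and 35 counts in controls and 606, 558 and 1117 in AKO, and Cd8b1 had 19, 551 and 15 in controls and 383, 336 and 763 in AKO. Their log2 fold changes were 1.34 and 1.26 (adjusted p = 0.544 and 0.569), and 4.69 and 4.67 (adjusted p = 0.00865 and 0.00797) without control 2. Control 2 lay above AKO 1 and AKO 2 in both Cd8 genes and below all AKO libraries in Cd4. Of the summed Cd8a and Cd4 counts, Cd8a made up 60.5% in control 2 (95% exact interval 57.9 to 63.2) and 38.4%, 38.4% and 40.4% in AKO 1 to 3, whose bounds ran from 35.9 to 42.3. Cd8b1 against Cd4 gave 51.3% in control 2 (48.2 to 54.3) and 28.3%, 27.3% and 31.7% in AKO. Controls 1 and 3, with 17 and 35 counts of Cd8a beside 32 and 47 of Cd4, had Cd8a shares of 34.7% (21.7 to 49.6) and 42.7% (31.8 to 54.1), so the controls did not share 1 value. The share of Cd3e in the summed Cd3e and Cd79a counts, a ratio of T to B transcripts, was 14.5% in control 2 (13.1 to 16.1) and 10.8%, 15.3% and 10.8% in AKO, so control 2 lay within the AKO range.

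**Figure D4:**
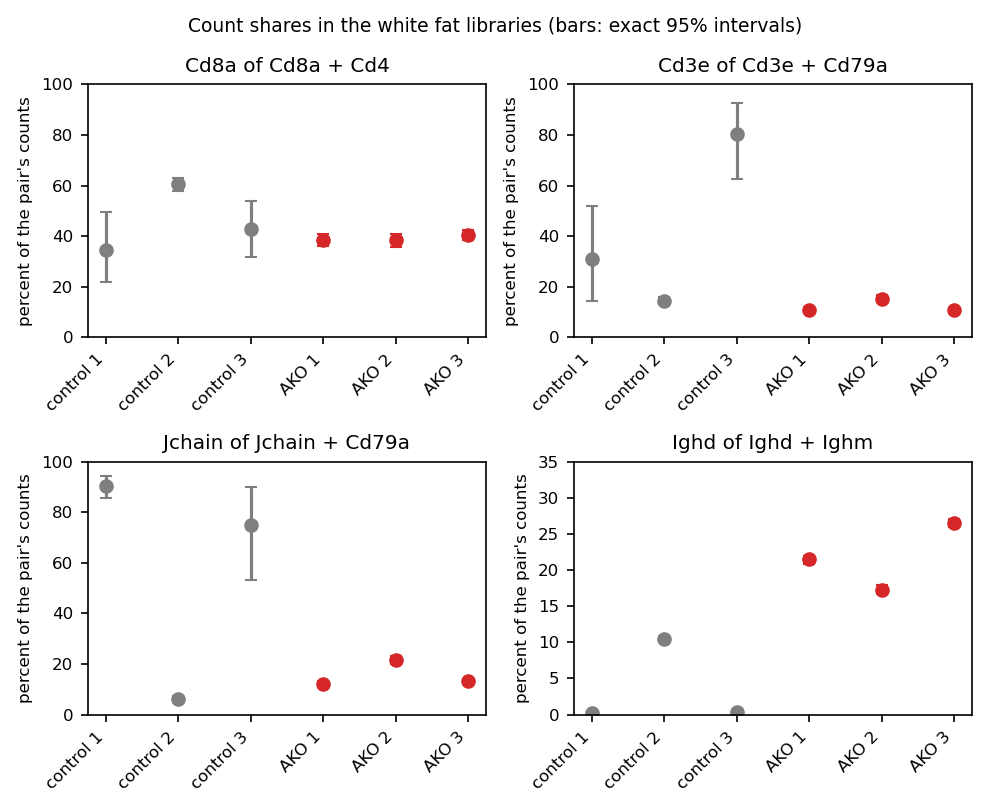
Share of the first gene in the summed counts of a pair, in percent, for each WAT library, with exact 95% intervals as bars that cover counting error only. Cd8a takes 60.5% of Cd8a and Cd4 in control 2 and 38.4% to 40.4% in AKO. Jchain takes 90.6% and 75% of Jchain and Cd79a in controls 1 and 3, and Ighd takes 0.272% and 0.372% of Ighd and Ighm there.

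All 6 T cell surface and regulatory members had positive log2 fold changes with a median of 1.79, 0 were called by edgeR, and 3 had groups that did not overlap. Foxp3, the factor that defines regulatory T cells, had 5, 96 and 7 counts in WAT controls and 171, 139 and 255 in AKO (log2 fold change 2.29, SE 1.02, adjusted p = 0.24 by edgeR), or 4.77 (adjusted p = 0.00626) without control 2, and it shares exon bases with Ppp1r3f, Ccdc22, Flicr and Gm36995. Ctla4, an inhibitory receptor of activated and regulatory T cells, had 1, 90 and 7 counts in controls and 164, 100 and 170 in AKO. In both genes the lowest AKO library was above control 2, by 1.45-fold and 1.11-fold. Foxp3 made up 23.2% of the summed Foxp3 and Cd3e counts in control 2 (95% exact interval 19.3 to 27.6) and 30.6%, 26.1% and 28.2% in AKO, with overlapping intervals. Ikzf3 (Aiolos), a transcription factor of B and T lymphocytes that is not among these 6 members, had 16, 323 and 40 counts in controls and 642, 376 and 1108 in AKO, without overlap. The adhesion receptor Cd2 had 36, 592 and 42 counts in controls and 543, 419 and 930 in AKO, and Cd5, a brake on antigen receptor signalling, 5, 321 and 26 in controls and 303, 240 and 542 in AKO. Without control 2 the log2 fold changes were 4.95 for Ctla4, 4.46 for Ikzf3, 3.83 for Cd2 and 4.35 for Cd5, with adjusted p of 0.0122, 0.0141, 0.00804 and 0.0223 by edgeR. Control 2 was within the AKO range for Cd2 and Cd5, and 11 of the 19 T and NK members but 3 of the 12 B members had control 2 within that range.

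Il7r, the interleukin 7 receptor of naive and memory T cells and of innate lymphoid cells, kept a larger base level in the controls. It had 131, 583 and 85 counts in WAT controls 1 to 3 and 674, 547 and 690 in AKO. Control 2 exceeded the other controls by 4.77-fold, against 11.2-fold for Cd4 and 12.7-fold for Cd3e. Its log2 fold change was 1.17 (SE 0.659, adjusted p = 0.33 by edgeR), and 2.39 (SE 0.209, adjusted p = 0.00668) without control 2.

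The cytotoxic and NK members were low in all WAT libraries and did not follow the node pattern as a group. Ncr1 (NKp46), an activating NK cell receptor, had 18, 12 and 19 counts in WAT controls and 20, 12 and 23 in AKO. Gzma, a granule protease, had 25, 21 and 23 counts in controls and 28, 14 and 40 in AKO. Klrb1c (NK1.1) had 6, 9 and 17 counts in controls and 22, 14 and 29 in AKO. Groups overlapped for all 3. Control 2, with its 317 counts of Cd3e, was the lowest control for Ncr1 and Gzma per library total and between the others for Klrb1c. Prf1, the pore protein of cytotoxic cells, differed from them with 11, 66 and 17 counts in controls and 59, 50 and 132 in AKO. The 4 log2 fold changes ran from 0.03 to 1.25 with a median of 0.49, adjusted p from 0.308 to 0.969 by edgeR, and the groups overlapped for each of the 4. Without control 2, Prf1 alone among them was called (log2 2.33, SE 0.534, adjusted p = 0.0478).

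RefSeq promoter windows of GRCm38.p6, the 250 bases before each annotated start, were held for 21 of the 31 members and were searched on both strands for 7 motifs. These were the octamer ATTTGCAT, the EBF motif CCCNNGGGA, an ETS motif CGGAAGT, a PU.1-type ETS motif GAGGAAGT, the RUNX core TGTGGT, the E box CAGCTG and TATAAA. None of these strings contains another. The octamer and CGGAAGT were found in 0 of the 21 members, against 1.81% and 5.58% of all 27025 genes. A gene, here and in the shares that follow, was counted when any of its windows held the letters, and the 27025 genes had 32851 windows. TGTGGT was found in 6 members (Fcer2a, Gzma, Klrb1c, Lck, Ncr1 and Prf1), against 15.9% of all genes. All 4 cytotoxic and NK members were among them, but the window of Klrb1c had 0 bases before its first annotated exon. The Klrb1c match therefore lies inside the annotated gene. CAGCTG was found in 3 members against 14.7% of all genes, and TATAAA in 3 against 14.3%. The EBF motif was found in 1 member against 6.45%, and the PU.1-type motif in 1 against 2.79%. The member with the EBF motif was Cd22, whose window also had 0 bases before its first annotated exon. Enrichment of these motifs was not tested. The motif letters were the only thing read from these windows, and no binding was measured. The stretches of Gzma and Ncr1 are shown because their transcripts stayed low in control 2, where Cd3d did not, and that of Prf1 as the cytotoxic member that was higher there. All end before the first annotated exon. They are chr13:113100982-113101231 on the minus strand for Gzma, chr7:4337465-4337714 on the plus strand for Ncr1, chr10:61297586-61297832 on the plus strand for Prf1 and chr9:44981536-44981785 on the plus strand for Cd3d. Capitals mark any of the 7 motifs on either strand. TGTGGT or its reverse complement begins at position -50 in Gzma, at -176 and -41 in Ncr1 and at -130 in Prf1, counted back from the RefSeq start, Prf1 also holds the E box at -204, and Cd3d holds none.
Gzma: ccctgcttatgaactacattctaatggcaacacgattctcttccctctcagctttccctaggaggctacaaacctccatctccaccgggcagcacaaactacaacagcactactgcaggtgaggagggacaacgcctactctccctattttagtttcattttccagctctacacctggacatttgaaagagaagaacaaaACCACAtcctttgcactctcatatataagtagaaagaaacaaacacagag
Ncr1: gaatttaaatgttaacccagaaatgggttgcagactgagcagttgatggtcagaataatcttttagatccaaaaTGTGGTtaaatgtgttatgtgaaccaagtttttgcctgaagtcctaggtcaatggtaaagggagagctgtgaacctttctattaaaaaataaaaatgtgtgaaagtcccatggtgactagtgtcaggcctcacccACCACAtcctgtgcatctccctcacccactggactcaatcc
Prf1: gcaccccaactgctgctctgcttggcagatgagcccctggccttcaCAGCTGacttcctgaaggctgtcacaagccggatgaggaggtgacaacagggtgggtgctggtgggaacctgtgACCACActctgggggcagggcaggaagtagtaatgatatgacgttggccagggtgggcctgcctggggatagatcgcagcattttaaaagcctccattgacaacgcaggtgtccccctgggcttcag
Cd3d: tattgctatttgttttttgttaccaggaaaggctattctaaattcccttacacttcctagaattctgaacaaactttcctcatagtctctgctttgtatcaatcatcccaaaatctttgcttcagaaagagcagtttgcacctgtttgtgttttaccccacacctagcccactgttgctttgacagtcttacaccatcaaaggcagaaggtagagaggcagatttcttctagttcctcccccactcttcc

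Tnfsf4, the OX40 ligand that costimulates T cells and is made by antigen-presenting and stromal cells, differed from the other members in its order of libraries. It had 4, 2 and 4 counts in WAT controls 1 to 3 and 55, 37 and 69 in AKO, so control 2 was not raised despite its node transcripts. Counts so near the floor of 3 do not rank the controls among themselves. The AKO libraries held 161 counts against 2 in control 2, a depth-scaled ratio of 26.5 (95% exact counting interval 7.23 to 221). The log2 fold change was 3.83 (SE 0.391), the largest of the 31 members, with an adjusted p of 0.0634 by edgeR. It was higher in 3 of 3 AKO libraries and positive in all 18 fits run for it, where the adjusted p ran from 3.67e-07 to 0.299. edgeR with no filter (adjusted p = 0.00981), DESeq2 (adjusted p = 3.67e-07), a fit of all 12 libraries (adjusted p = 0.0106), limma on log2(FPKM + 0.1) (adjusted p = 0.0448) and the fit without control 2 (adjusted p = 0.0101) called it. With the node covariate the log2 fold change was 4.43 (SE 0.825, adjusted p = 0.261). In BAT it had 1 count in control 1 and 0 in the other 5 libraries, so each WAT AKO library was at least 11.2-fold above each BAT AKO library, taking 3 counts per library as the floor. Tnfsf4 lies on the plus strand of chromosome 1 (161395409 to 161418410), and its level per length in WAT AKO was 1.63 ± 0.504 FPKM (SD, n = 3).

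Transcripts that mark the node itself rather than its lymphocytes split the WAT libraries as Cd79a did. Glycam1, the mucin of high endothelial venules, had 0, 229 and 0 counts in WAT controls 1 to 3 and 749, 534 and 764 in AKO, and 0 in all 6 BAT libraries. With a floor of 3 counts per library, control 2 was at least 76.4-fold above controls 1 and 3, and each AKO library at least 178-fold. Chst4, the sulphotransferase that modifies such mucins, had 0, 15 and 0 counts in controls and 41, 26 and 45 in AKO. The T zone chemokine Ccl19 had 3, 295 and 5 counts in controls and 404, 309 and 631 in AKO. Relative to Cd79a, Glycam1 made up 10.9% of the summed counts in control 2 (95% exact interval 9.62 to 12.3) and 19%, 19.7% and 12.5% in AKO 1 to 3. Of 13 node stroma and high endothelium genes that passed the filter, 11 had positive log2 fold changes with a median of 2.26, 0 were called by edgeR with 6 at an unadjusted p under 0.05, and for 9 of them every AKO library was above every control. Over all genes, 22.6% had an unadjusted p under 0.05 and 19.3% had every AKO library above every control. Without control 2, 9 were called higher and 1, the broadly expressed receptor gene Ltbr, lower, where 6.51% and 3.56% of all genes were. How much of the lymphocyte difference between genotypes goes with the presence of a node in the sample, and not with the fat, was not tested, since node transcripts and genotype overlap in all libraries but control 2.

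Cxcl13, the chemokine of B cell follicles, had 257, 255 and 19 counts in WAT controls and 1214, 839 and 1509 in AKO (log2 2.63, SE 0.794, adjusted p = 0.144 by edgeR). Control 1 thus equalled control 2 in Cxcl13 while it held 0 counts of Glycam1. Cxcl13 measured 2.93 (adjusted p = 0.0948) without control 2. Fcamr, a receptor for IgM and IgA, had 30, 48 and 29 counts in controls and 123, 67 and 150 in AKO (log2 1.53, SE 0.332, adjusted p = 0.101, and 1.75, adjusted p = 0.0355 without control 2). Madcam1, an addressin of high endothelial and sinus-lining cells, had 2, 14 and 6 counts in controls and 58, 28 and 64 in AKO (log2 2.62, SE 0.609, adjusted p = 0.109, and 3.41, adjusted p = 0.024 without control 2), in the library order of Ms4a1.

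All 18 further B cell genes had positive log2 fold changes, with a median of 2.15, 0 called by edgeR (4 at an unadjusted p under 0.05) and 10 with groups apart. Of all genes tested, 22.6% had such a p and 19.3% had AKO wholly above control. Cxcr5, the receptor for Cxcl13, had 3, 212 and 5 counts in WAT controls and 1005, 453 and 1085 in AKO, and made up 10.2% of its sum with Cd79a in control 2 against 24%, 17.2% and 16.8% in AKO. All 20 further T cell genes were positive with a median of 1.63 and 0 called by edgeR (3 at an unadjusted p under 0.05). Icos, a costimulatory receptor of helper T cells, had 8, 117 and 15 counts in controls and 211, 182 and 323 in AKO (log2 2.26, SE 0.908, adjusted p = 0.21, and 4.18, adjusted p = 0.00797 without control 2). Of 12 further NK and cytotoxic genes, 8 passed the filter and all 8 were positive with a median of 1.17. Of 8 germinal centre genes 4 passed, 2 of them positive and 2 negative, 0 were called by edgeR, and 4 had an unadjusted p under 0.05. Naive homing genes, which include Cxcr5, had 8 of 9 positive with a median of 1.89. In the proliferation list 4 of 12 genes were positive and the median was -0.11. Macrophage genes went the other way from the members, with 10 of 12 negative, a median of -0.66, 0 called by edgeR (8 at an unadjusted p under 0.05) and 7 with all AKO libraries below all controls, a pattern held by 8.84% of all genes. Their summed level was 1975, 1692 and 1529 CPM in controls and 1599, 1296 and 1620 CPM in AKO, so the sums overlapped. Trem2, a lipid-sensing receptor of macrophages in obese fat, measured -2.34 (SE 0.268, adjusted p = 0.067) and Adgre1 (F4/80) -1.33 (SE 0.211, adjusted p = 0.0749). Without control 2, edgeR called 4 macrophage genes lower, where it called 3.56% of all genes lower: Trem2 (-2.32, adjusted p = 0.0128), Adgre1 (-1.36, adjusted p = 0.0263), Mrc1 (-1.44, adjusted p = 0.00813) and C1qb (-0.77, adjusted p = 0.0317). Of all genes, it then called 6.51% higher. It then also called 17 of the 18 further B cell genes, 19 of the 20 further T cell genes, 4 of the 8 NK genes, 6 of the 9 naive homing genes and 2 of the 7 plasma cell genes higher, and 0 germinal centre or proliferation genes, with 3 and 0 of these at an unadjusted p under 0.05. Over all 15915 genes tested, DESeq2 called 700 higher and 979 lower. Within the lists, DESeq2 called 2 of the further B cell genes, 3 of the further T cell genes, 2 of the NK genes, 3 of the immunoglobulin constant genes, 1 plasma cell gene and 4 node stroma genes higher, and 6 macrophage genes lower. It also called 1 node stroma gene lower, and of the germinal centre genes 1 higher and 1 lower.

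Markers of other cells that a fat pad sample can hold were counted in the same way. Dendritic cell genes had 8 of 10 positive with a median of 0.70, and group 2 innate and tissue Treg genes 2 of 3 positive with a median of 0.26. Neutrophil and mast cell genes had a median of -0.05, erythroid genes 0.00 and adipocyte genes -0.25 with 2 of 10 positive. All 11 skeletal muscle genes that passed were positive with a median of 0.59, which went with 2.11% of counts in AKO 2 and 1.2% in control 1. Of 11 mammary and skin epithelium genes only 2 passed, and Epcam had 2, 9 and 1 counts in controls and 34, 26 and 33 in AKO (log2 2.81, SE 0.621, adjusted p = 0.103). Of 6 lymphatic endothelium genes 4 were positive with a median of 0.38, and Prox1, the factor of lymphatic identity, had 12, 19 and 9 counts in controls and 50, 61 and 70 in AKO (log2 2.06, SE 0.33, adjusted p = 0.0749). Prox1 and Epcam in control 2 lay nearer to the other controls than to AKO. Krt5, a keratin of basal epithelium, was at 0 in all 12 libraries. edgeR called 0 genes of these 8 lists, with at most 2 per list at an unadjusted p under 0.05, and DESeq2 called at most 1 per list in each direction. Without control 2, edgeR called 5 dendritic cell genes (Flt3, Xcr1, Siglech, Ccr7 and Ccr9), Gata3 of the group 2 list, Epcam (4.09, adjusted p = 0.00968), and Prox1 (2.35, adjusted p = 0.0156) with Ccl21a higher, and Cd209a and Pdpn lower. Of all genes, 6.51% were called higher and 3.56% lower in that fit. The part of these cells in the lymphocyte differences was not tested.

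Among 14554 genes with at least 2 CPM in 1 library, those most like the mean of the 12 B members over the 12 libraries, by Pearson correlation of log2(CPM + 1), were Btla, Pglyrp2, Slamf6, Pou2af1 and Ltb (r = 0.9982 to 0.997). Those most like the T members Cd3d to Cd5 were Ubash3a, Zap70, Ptprcap, Lat and Trbc2 (r = 0.9985 to 0.9979). These points share libraries and the 2 levels set by 4 WAT libraries against 8 others, so the values are a description. Pou2af1, the octamer coactivator of B cells, had 8, 347 and 5 counts in WAT controls and 866, 578 and 1316 in AKO. Zap70, the kinase recruited to the T cell receptor, had 19, 331 and 25 counts in controls and 373, 290 and 640 in AKO.

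In BAT the members were near the floor of detection and no genotype difference was called. Only 11 of the 31 members passed the filter, 0 were called by edgeR, where 0.0771% of all genes were, 1 had an unadjusted p under 0.05, as did 13.6% of all genes, and the median log2 fold change was 0.01 against 0.01 over all genes. DESeq2 also called 0. Cd79a had 22, 55 and 12 counts in BAT controls 1 to 3 and 34, 24 and 28 in BAT AKO (log2 -0.05, SE 0.493, adjusted p = 0.974). The member with the smallest p was Ctla4, with 4, 12 and 7 counts in controls and 19, 15 and 13 in AKO (log2 1.02, SE 0.407, adjusted p = 0.352), the 1 member whose BAT groups did not overlap. Every BAT AKO library lay above every BAT control for 958 of the 14265 genes tested. Ighm had 487, 698 and 822 counts in controls and 1149, 543 and 558 in AKO (log2 0.14, SE 0.298, adjusted p = 0.853). BAT control 2 was the highest BAT library for Cd79a, Cd79b, Ms4a1, Fcer2a and Ighd, at 55, 20, 16, 23 and 41 counts, yet held 0 of Glycam1. At counts this low, small differences were not detectable at this depth.

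The difference of the AKO effects between depots was tested directly. All 31 members entered this fit, 27 had a larger log2 fold change in WAT than in BAT, and 0 were called by edgeR, where 0.275% of all genes were, with 2 at an unadjusted p under 0.05, as had 18.4% of all genes. DESeq2 called 0 as well. For Cd79a the difference was 2.51 (SE 2.1, adjusted p = 0.558) and for Jchain 3.26 (SE 1.13, adjusted p = 0.172). Without WAT control 2, 20 members were called, where 5.5% of all genes were. The genotype effect is therefore not shown to differ between the depots for any member with all libraries kept.

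Among AKO libraries, 31 of 31 members were called higher in WAT, where 30.5% of all genes tested were called higher, with a median log2 difference of 5.76 (5.74 with Tnfsf4, which had no count in BAT AKO, at its lower bound). Most members did not pass the filter within BAT and entered this fit through their WAT AKO counts. For them a call in this direction was nearly fixed by the filter. The same limit holds among controls for members with a few counts in BAT. Every WAT AKO library was above every BAT AKO library for all 31, a pattern held by 9290 of the 15671 genes tested. Over all genes 4781 were called higher and 4510 lower in WAT, a split that became 8759 and 2068 when edgeR scaled by library totals, under which all 31 members were again called higher. Cr2 measured 8.70 (SE 0.535, adjusted p = 1.41e-05 by edgeR), Cd79a 6.25 (SE 0.354, adjusted p = 1.04e-05) and Cd3e 5.37 (SE 0.465, adjusted p = 6.03e-05). The size for Cr2 is uncertain, since its 1, 0 and 3 counts in BAT AKO 1 to 3 were at or under the floor of 3 counts. Gzma had the smallest difference, 1.63 (SE 0.454, adjusted p = 0.0162). Among controls, 18 members passed the filter and 10 were called higher in WAT, where 25.7% of all genes were (3858 higher and 3666 lower, or 6253 and 2107 scaled by library totals): Ighm, Ncr1, Il7r, Cd3g, Cd4, Lck, Ikzf3, Cd8b1, Cd8a and Cd2. Ncr1, with 18, 12 and 19 counts in WAT controls and 1, 3 and 0 in BAT controls, measured 2.98 (SE 0.7, adjusted p = 0.0115). Every WAT control was above every BAT control for Ncr1, as for 7267 of the 15031 genes tested. With the replicate number as a block, which the correlations between depots allow among controls, 15 members were called, where 28.3% of all genes were. Without control 2, 5 members were called, where 23% of all genes were, and leaving out any 1 of the 6 control libraries gave between 1 and 16. DESeq2 called 5. Cd79a was not called (log2 3.83, SE 1.91, adjusted p = 0.137, and 2.21, SE 1.34, adjusted p = 0.21 with the block), and without control 2 it measured -1.81, again not called. It had 0.949 and 0.339 CPM in WAT controls 1 and 3 against 1.4, 3.39 and 0.762 CPM in BAT controls, so these libraries overlapped.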

How the data were processed

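RNA of 12 libraries was made by polyA selection after TRIzol extraction, per the labels' protocols. The submitters' processing notes name Bowtie2 2.2.3, HISAT2 2.1.0, HTSeq 0.6.0 and the mm10 genome, without roles or order, and they give no strand setting. The authors deposited whole-number counts per Ensembl gene and a table of FPKM over 31231 genes. FPKM equalled the counts divided by the library total and a constant per gene to within a relative deviation of 1.75e-08. Ensembl identifiers were given symbols from GENCODE M21 (52403 of 52550 matched). Totals of 15692588 to 18967159 counts make 3 counts, the floor used here, 0.158 CPM in WAT control 1.

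Groups were compared with edgeR 4.0.16 (TMM scaling, filterByExpr at 10 counts and a total of 15, quasi-likelihood F test, Benjamini-Hochberg over all genes, threshold 0.05), fitting only the 6 libraries of each comparison, or all 12 for the difference between depots. This test reports no SE. The SE printed with edgeR values is the absolute log2 fold change divided by the square root of F. It is not reliable for very small fold changes. DESeq2 1.42.0, limma 3.58.1 (voom, and log2 of FPKM plus 1 or 0.1), other scalings and filters, a replicate block and leaving out each library were alternatives. R 4.3.3, Python 3.11.15, numpy 2.4.6, pandas 2.3.3, scipy 1.17.1 and matplotlib 3.10.9 were used, and the edgeR script was tested on simulated data. Exact 95% intervals are Clopper-Pearson and cover counting error only. With 3 libraries against 3 an exact permutation test cannot go below 0.1.

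The members and gene lists were chosen with earlier results of these data known. Named were all members, up to 4 genes of each other list with the smallest p in WAT, and genes most like the B and T members. For each of these 2 references 12 such genes were ranked and the first 5 named. Glycam1, Chst4, Ccl19, Cxcl13, Adipoq, C1qb, Xcr1, Siglech, Ccr9 and the pair shares were named after their values were seen. Same-numbered libraries deviated together between depots among controls (correlations 0.576, 0.195 and 0.483). Among AKO libraries the values were 0.569, 0.651 and 0.091, where BAT AKO 1 also correlated at 0.402 with WAT AKO 3. No label states a pairing, so the replicate number entered only as an alternative block. The main fits between depots, and of the difference of AKO effects, ignore any such pairing.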

Additional observations from a re-analysis of the deposited data

How the results depend on the processing

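Of 545 member values for AKO against control in WAT under the alternatives, 485 kept their direction and side of the threshold, 31 passed it and 29 changed sign. All 84 for WAT against BAT among AKO libraries kept both. Counts in brackets below are all genes called higher, of those tested. Members called in WAT numbered 1 with no filter (98 of 29893), 2 with DESeq2 (700 of 15915), 1 with limma on log2(FPKM + 0.1) (13 of 15915) and 1 with all 12 libraries in 1 fit (439 of 16391). They numbered 0 to 26 with 1 library left out, the 26 being without control 2 (1066 of 16376). For the difference between depots, limma on log2(FPKM + 1) (157 of 16391) and on log2(FPKM + 0.1) (70 of 16391) each called 1. Leaving out 1 library gave 0 to 20, the 20 again without WAT control 2 (681 of 16790). For WAT against BAT among controls the 10 calls became 16 with no filter (4036 of 28234), 2 with at least 2 CPM in 3 libraries (3468 of 12718), 5 with DESeq2 (3908 of 15031) and 3 with voom (3635 of 15031). They became 4 with log2(FPKM + 1) (6008 of 15031), 5 with log2(FPKM + 0.1) (6151 of 15031), 2 with mean FPKM at least 1 (4992 of 12185) and 26 with all 12 libraries (4493 of 16391). The filter also sets how many members enter a fit, so these counts are not directly comparable. With 1 library left out they ran from 1 to 16. They were 16 without WAT control 1 (3455 of 15427), 5 without WAT control 2 (3509 of 15280) and 1 without BAT control 1 (2981 of 15683). Without BAT control 2 (3200 of 15676) or 3 (3184 of 15707) they were 3. The cause was not tested.

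The median member log2 fold change in WAT (1.95) ran from 1.40 to 4.67 with 1 library left out. With the node covariate, chosen after seeing the data, it was -0.65, and the sign changed for Cd79a (-1.10), Cd79b (-0.74), Ms4a1 (-0.88), Cr2 (-0.56), Fcer2a (-0.71), Pax5 (-0.90), Blk (-1.56), Cd22 (-1.19), Ighd (-0.53), Bank1 (-0.03), Cd3d (-0.80), Cd3e (-0.65), Cd3g (-0.99), Cd8a (-1.55), Cd8b1 (-1.63), Foxp3 (-0.21), Ctla4 (-0.66), Lck (-1.18), Cd247 (-0.52), Cd2 (-1.14), Cd5 (-1.26), Il7r (-0.51), Prf1 (-0.59) and Ikzf3 (-0.16). These sign changes were largely built in, since the covariate genes split the WAT libraries as most members did. With 1 library left out, Ncr1 ran from -0.19 to 0.21 and Gzma from -0.28 to 0.38 in WAT, with Ncr1 at -0.01 without AKO 1 and -0.17 without AKO 3 and Gzma at -0.00 without control 2. In BAT, Cd79a measured 0.20 with voom, 0.03 with log2(FPKM + 1) with or without a mean of at least 1, 0.13 with log2(FPKM + 0.1), 0.14 with the replicate block, and -0.41 to 0.71 with 1 library left out, and Ighm -0.25 to 0.33. The difference between depots for Ighm ran from -0.57 to 0.02, and Cd79a in WAT against BAT among controls from -1.81 to 4.59.

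The replicate block called 0 members in WAT, with a median of 3.34 and Cd79a at 5.96 (adjusted p = 0.353 by edgeR), and 15 in place of 10 between depots among controls. Same-numbered WAT libraries correlated at -0.476, -0.010 and 0.214, so there they share only a number. Scaling by library totals moved the median of all genes to 0.14 for genotype in WAT, 0.16 for the difference between depots, 0.60 for WAT against BAT among AKO libraries and 0.40 among controls. Members at a few counts in BAT or in WAT controls 1 and 3 are limited by depth.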
